A study of Mus musculus with 4 samples.

Results

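Podosomes are small adhesive structures in which a core of branched actin is surrounded by a ring of integrins and their adaptor proteins, and osteoclasts, the cells that resorb bone, gather them into a belt and, on bone, into the sealing zone that closes off the resorption pit. Integrin alpha v beta 3 is the main adhesion receptor of the osteoclast. Talin and kindlin bind the tail of its beta subunit and switch it on, the tyrosine kinases Src and Pyk2 signal from it, and actin-severing and scaffold proteins remodel the core. Mice without Src or without the beta 3 subunit form osteoclasts that resorb bone poorly and become osteopetrotic or osteosclerotic. Expression of 10 genes of this machinery, named as a list and found by gene symbol, was measured here among the 21834 protein-coding genes of the deposited table. They are the integrin subunits Itgb3 and Itgav, the adaptors Tln1, Fermt3, Vcl and Pxn, the kinases Src and Ptk2b, the scaffold Sh3pxd2a and the actin-severing protein Gsn. All 10 had 1 row each and passed the filter on low counts.

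The libraries came from mouse bone marrow cells that had been driven towards osteoclasts with RANKL, the cytokine that starts this differentiation, for 3 days. Both groups had 2 libraries, from mice whose Nat10 gene was knocked out conditionally (Nat10 cKO) and from wild-type (WT) mice, and both were induced in the same way. Nat10 is the enzyme that places N4-acetylcytidine on RNA, and the design asks how osteoclast differentiation differs without it. The sources used here do not give the Cre driver, the deleted exons, or the age, sex and strain of the mice. They also do not say whether replicates are different animals, and p-values measure the spread between libraries only. Cells were washed with cycloheximide, which stops translation, before lysis in both groups.

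Library totals lay between 10037338 and 14097638 counts, and the 10 genes took 0.161 to 0.168% of the counts of the Nat10 cKO libraries and 0.149 to 0.151% of those of the WT libraries. Nat10 itself (chromosome 2, 103551601 to 103591615 on GRCm39) was at 15.9 and 14.3 CPM (counts scaled to a common library total with TMM factors) in the Nat10 cKO libraries, against 16.8 and 18.6 CPM in the WT libraries, which did not pass the test (log2 fold change -0.24, SE 0.153, edgeR adjusted p = 0.263). The Nat10 cKO libraries lay below the WT libraries without overlap, by a margin that did not pass. Transcripts that lack only the deleted exons would still be counted, so this level is no check of the labels, and the groups are called as their labels call them. Of 12 osteoclast markers, all tested, 6 were higher and 4 lower in the Nat10 cKO libraries, and their summed level was 6806 to 7500 CPM against 5726 to 6025 CPM in WT. Acp5 (2697 and 3128 CPM against 1923 and 2024 CPM in WT) and Mmp9 (2075 and 2284 CPM against 1683 and 1815 CPM) held the largest parts of that sum. The lower markers were Calcr, Dcstamp, Car2 and Clcn7. Of 11 macrophage markers, 10 were tested, 4 were higher and 3 lower, with a summed level of 7022 to 7107 CPM in the Nat10 cKO libraries against 5649 to 5791 CPM in WT, and Cd163 was too low to test. Adgre1 held the largest part of that sum (3521 and 3389 CPM in the Nat10 cKO libraries against 2232 and 2336 CPM in WT). The lower macrophage markers were Msr1, Mrc1 and Cd14. Of 16 stromal, fibroblast and osteoblast markers, 14 were tested, 13 were higher and 0 lower, and their summed level was 1833 to 1923 CPM in the Nat10 cKO libraries, against 508 to 563 CPM in WT. These are bulk libraries, in which fewer cells of a type and less RNA per cell cannot be told apart.

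Of the 10 podosome genes, Gsn and Itgb3 rose in the Nat10 cKO libraries, Src fell, and the remaining 7 did not pass the test. That is 2 of 10 higher where 14.4% of all 11448 tested genes were higher, and 1 of 10 lower where 14.4% were lower (28.8% in either direction), shares close to the background (edgeR quasi-likelihood test, adjusted p under 0.05). The median log2 fold change of the 10 genes (Nat10 cKO minus WT) was 0.013, beside 0.0075 over all tested genes. The groups did not overlap in 6 of the 10 genes, with the Nat10 cKO libraries above WT in 4 and below WT in 2, where 32.3% of all tested genes lay above, 31.3% below and 63.6% did either. The 10 genes therefore had no common direction, and their fold changes ran from -0.34 for Src to 0.77 for Gsn on the log2 scale. Without WT replicate 2 the higher genes numbered 1 and the lower 0. Without WT replicate 1 the lower genes numbered 0 and without Nat10 cKO replicate 1 they numbered 2, while upper-quartile scaling left 3 higher and 0 lower.

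**Figure D1:**
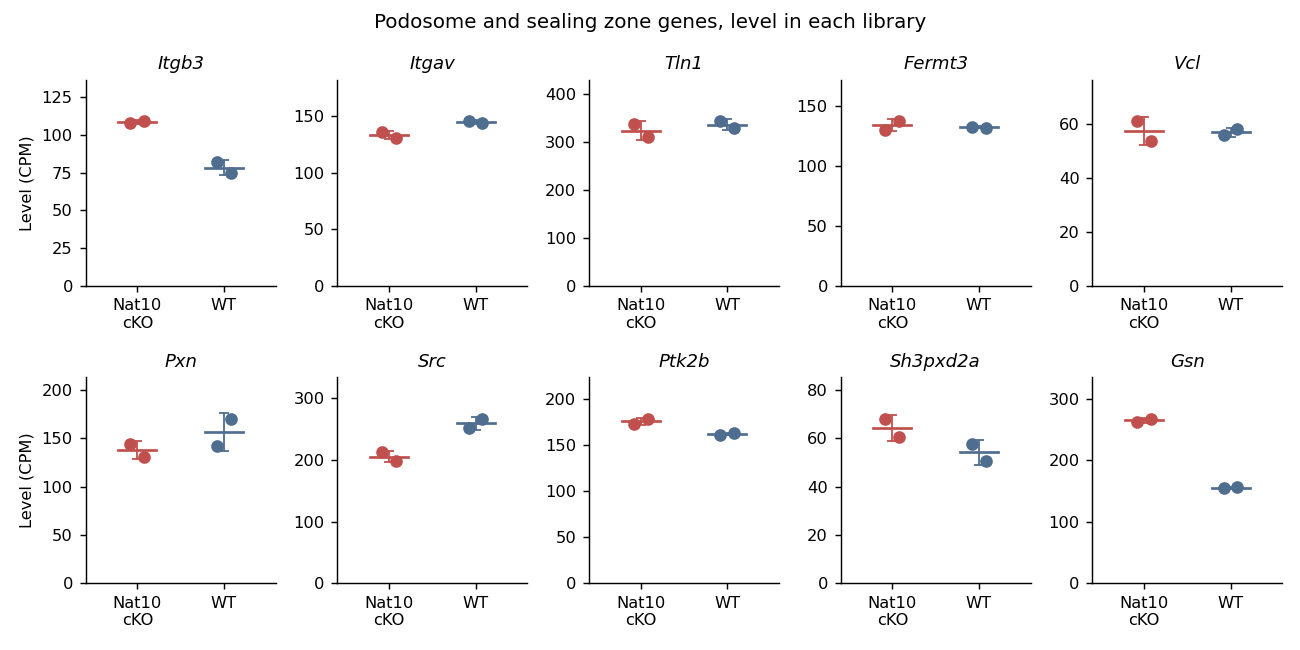
Level of each of the 10 genes in CPM (vertical axes, each starting at 0) in the 2 Nat10 cKO libraries (red, left) and the 2 WT libraries (blue, right), with points for libraries, a line for the mean and bars for the SD. Gsn and Itgb3 lie higher and Src lower in the Nat10 cKO libraries without overlap, and the points of Tln1, Fermt3, Vcl and Pxn overlap between the groups.

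**Figure D2:**
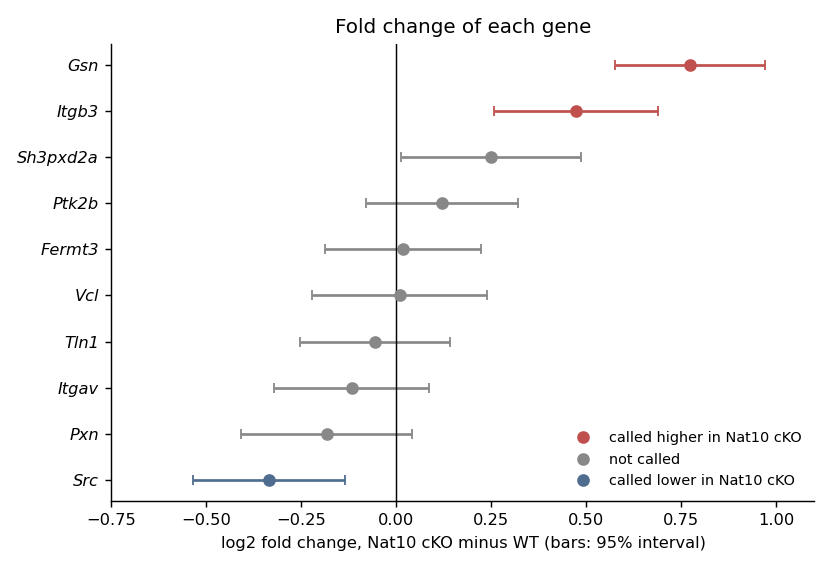
Fold change of each gene on the log2 scale (horizontal axis, Nat10 cKO minus WT) with its 95% interval, ordered by size and coloured by the edgeR call. The interval of Gsn (0.57 to 0.97) lies farthest from 0, and 6 of the 7 intervals in grey include 0.

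The RefSeq promoter table (GRCm38.p6, another build than that of the deposited coordinates) held windows for 6 of the 10 genes, and the 250 bases before each annotated start are printed for Gsn and Src, the called genes with an entry. Gsn had 3 starts and Src 1, and the gene counts here add the transcripts of all starts. The windows are chr2:35256109-35256358, chr2:35266494-35266743 and chr2:35282130-35282379 for Gsn and chr2:157424043-157424292 for Src, all on the plus strand and written 5′ to 3′. Capitals mark matches, on either strand, to GAGGAA, the core of sites for the myeloid factor PU.1, to GGAAA, the core of NFAT sites, to TGANTCA, the AP-1 site, and to CACGTG, an E-box bound by MITF.
Gsn window 1: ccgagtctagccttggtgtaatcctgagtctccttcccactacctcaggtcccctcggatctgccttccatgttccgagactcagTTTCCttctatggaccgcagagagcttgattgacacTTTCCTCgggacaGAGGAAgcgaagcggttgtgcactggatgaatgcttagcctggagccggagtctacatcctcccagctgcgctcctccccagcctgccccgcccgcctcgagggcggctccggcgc
Gsn window 2: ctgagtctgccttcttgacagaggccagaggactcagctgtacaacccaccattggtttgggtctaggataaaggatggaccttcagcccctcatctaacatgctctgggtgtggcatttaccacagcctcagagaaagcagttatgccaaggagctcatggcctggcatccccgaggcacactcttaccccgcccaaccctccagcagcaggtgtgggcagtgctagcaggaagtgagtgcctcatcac
Gsn window 3: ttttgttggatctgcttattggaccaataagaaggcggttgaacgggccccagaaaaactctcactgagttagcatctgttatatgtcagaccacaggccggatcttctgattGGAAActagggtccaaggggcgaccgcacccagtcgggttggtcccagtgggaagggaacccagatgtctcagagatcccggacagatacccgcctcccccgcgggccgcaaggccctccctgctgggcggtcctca
Src window 1: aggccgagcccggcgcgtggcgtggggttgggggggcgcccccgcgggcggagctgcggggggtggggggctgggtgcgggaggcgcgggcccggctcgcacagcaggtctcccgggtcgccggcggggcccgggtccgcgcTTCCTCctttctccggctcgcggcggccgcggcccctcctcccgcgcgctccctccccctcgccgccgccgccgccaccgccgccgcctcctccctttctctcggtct
The first Gsn window held 2 matches to GAGGAA and 2 to GGAAA, of which the run TTTCCTC counts for both, the second held none of the 4 motifs, and the third held 1 match to GGAAA. The Src window held 1 match to GAGGAA. None held TGANTCA or CACGTG. Over all 32817 windows of the table, 23.3% held GAGGAA, 55.6% GGAAA, 6.75% TGANTCA and 6.02% CACGTG on either strand. The Src window had 40 CG dinucleotides, more than 98.7% of windows, and the 3 Gsn windows had 15, 2 and 12, where the median window had 6.

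Of the 2 subunits of the osteoclast integrin, Itgb3 rose and Itgav did not pass the test. Itgb3, the beta 3 subunit, which pairs with the alpha v subunit in osteoclasts and with alpha IIb in platelets, lies on chromosome 11 (ENSMUSG00000020689, 104498826 to 104561302, plus strand, GRCm39). It had 1251 and 1569 counts in the Nat10 cKO libraries and 802 and 954 counts in the WT libraries, or 108 and 109 CPM against 81.9 and 74.7 CPM. Both Nat10 cKO libraries lay above both WT libraries. The mean was 109 ± 1.002 CPM in the Nat10 cKO libraries and 78.3 ± 5.07 CPM in the WT libraries (SD, n = 2 each), so that Itgb3 rose by 38.8%, or 0.47 on the log2 scale (95% interval 0.26 to 0.69, SE 0.103, edgeR adjusted p = 0.00191). Leaving out WT replicate 2, the library with the lowest Itgb3, ended the call at 0.40, and over the 11 other settings the adjusted p ran from 2.21e-06 to 0.10.

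Itgav, the alpha v subunit, lies on chromosome 2 (83554741 to 83637260, plus strand). Its level was 136 and 131 CPM in the Nat10 cKO libraries, against 146 and 144 CPM in the WT libraries. The Nat10 cKO libraries lay below the WT libraries without overlap, by a margin that did not pass the test (log2 fold change -0.12, SE 0.0969, 95% interval -0.32 to 0.09, edgeR adjusted p = 0.402). Per kilobase of exon, a scale on which genes can be roughly compared, Itgb3 stood at 18.4 CPM per kb and Itgav at 12.4 CPM per kb in the Nat10 cKO libraries, and Itgb3 at 13.3 and Itgav at 13.5 in WT. The ratio of Itgb3 to Itgav on that scale was 1.44 and 1.52 in the Nat10 cKO libraries, against 1.02 and 0.946 in the WT libraries. On this scale the 2 subunits were thus near parity in WT libraries, and the ratio was higher in both Nat10 cKO libraries. The length is that of all annotated exons together, not of the transcripts expressed. The size of the ratio depends on that length, and its relative change between the groups does not.

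Among the other integrins, Itgb5, the beta 5 subunit and another partner of alpha v, rose by 0.94 (SE 0.117, edgeR adjusted p = 7.34e-06), with 62.0 and 68.6 CPM in the Nat10 cKO libraries against 31.5 and 36.3 CPM in WT. Itgb1, the beta 1 subunit that pairs with many alpha subunits, went the other way and fell by 0.42 (456 and 431 CPM against 588 and 599 CPM in WT). Itgb2, the leukocyte beta 2 subunit, rose by 0.42 and Itgb7 by 0.43. Of the alpha subunits, Itga5 of the fibronectin receptor fell by 0.36 and Itga4 fell by 0.77. Itga2b, the platelet partner of Itgb3, was at 3.54 and 4.32 CPM in the Nat10 cKO libraries and 3.47 and 4.15 CPM in the WT libraries (log2 fold change 0.04, adjusted p = 0.935). In the list of 12 megakaryocyte and platelet markers, 4 were tested, 2 were higher and 1 was lower, the summed level was 168 to 204 CPM in the Nat10 cKO libraries against 87.2 to 89.99 CPM in WT, and Gp1bb had no count in any library. Pf4 made up most of that sum, with 148 and 180 CPM in the Nat10 cKO libraries against 54.9 and 61.2 CPM in WT. Without Pf4, left out after its values were seen, the other 11 genes summed to 20.5 and 23.6 CPM in the Nat10 cKO libraries against 32.3 and 28.8 CPM in WT, the reverse direction. Gp6, the gene called lower, made up most of that WT sum. It was at 8.97 and 8.99 CPM in the Nat10 cKO libraries against 23.6 and 18.8 CPM in WT. Ppbp was called higher, at 5.17 and 4.46 CPM against 2.25 and 2.82 CPM in WT. The reverse direction of the sum thus rests largely on Gp6. The part of the platelet markers in the Itgb3 result was not tested. Without WT replicate 1 the calls of Itgb2 (0.35) and Itga5 (-0.40) ended, and without WT replicate 2 those of Itgb1 (-0.41), Itga5 (-0.32) and Itgb7 (0.26). Itga5 also lost its call with upper-quartile factors (-0.26), and Itgb7 in DESeq2 (0.42) and without Nat10 cKO replicate 2 (0.31).

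The 4 adaptors that link the integrin tail to actin did not pass the test. Tln1 encodes talin, the long rod-shaped protein that activates integrins and couples them to actin, and lies on chromosome 4 (43531519 to 43562691, minus strand). Its level was 336 and 309 CPM in the Nat10 cKO libraries, against 343 and 328 CPM in the WT libraries, the highest CPM of the 10 genes in every library. The groups overlapped, and the log2 fold change was -0.06 (SE 0.0938, 95% interval -0.25 to 0.14, edgeR adjusted p = 0.699). Fermt3 encodes kindlin-3, the kindlin of blood cells, and lies on chromosome 19 (6976326 to 6996837, minus strand). Its level was 131 and 138 CPM in the Nat10 cKO libraries, against 133 and 132 CPM in the WT libraries. Here too the groups overlapped, at 0.02 on the log2 scale (95% interval -0.19 to 0.22, SE 0.0977, edgeR adjusted p = 0.919).

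Vcl encodes vinculin, which is recruited to stretched talin and strengthens its link to actin, and lies on chromosome 14 (20979466 to 21083744, plus strand). Its level was 61.1 and 53.7 CPM in the Nat10 cKO libraries, against 55.8 and 58.1 CPM in the WT libraries, the Nat10 cKO libraries lying on either side of both WT libraries (log2 fold change 0.01, SE 0.110, 95% interval -0.22 to 0.24, edgeR adjusted p = 0.967). Pxn encodes paxillin, a docking protein for Src and Pyk2, and lies on chromosome 5 (115644735 to 115694046, plus strand). Its level was 145 and 131 CPM in the Nat10 cKO libraries, against 142 and 171 CPM in the WT libraries. The WT libraries of Pxn were the farthest apart of any of the 10 genes, at 156 ± 19.9 CPM beside 138 ± 9.62 CPM in the Nat10 cKO libraries (SD, n = 2 each), and the log2 fold change was -0.18 (SE 0.108, 95% interval -0.41 to 0.04, edgeR adjusted p = 0.221). With Nat10 cKO replicate 1 left out this became a call (-0.27), and with 1 WT library left out the value was -0.31 (replicate 1) or -0.054 (replicate 2). Tln1, Fermt3 and Vcl each overlap 1 other gene of the table on the opposite strand (Creb3, Trpt1 and Ap3m1), whose highest levels were 42.6, 1.43 and 53.1 CPM. The strand setting of the counting is not given, so how reads in the shared stretches were counted is not known.

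Of the 6 paralogs of the adaptors, all but Fermt1 were tested, 3 rose and 0 fell, where 14.4% of all tested genes were higher and 14.4% lower. All 3 rose from levels far below the adaptor itself per kilobase of exon. Fermt2, the kindlin of connective tissue cells, was at 14.5 and 15.0 CPM in the Nat10 cKO libraries and 5.41 and 5.48 CPM in the WT libraries, and rose by 1.44 (SE 0.189, edgeR adjusted p = 1.39e-05). Fermt3 remained above it per kilobase of exon in every library, with a ratio of 8.09 and 8.22 in the Nat10 cKO libraries against 22.1 and 21.6 in WT. Tgfb1i1, a paxillin relative of smooth muscle and fibroblasts also called Hic-5, rose by 2.02 and Tln2, the second talin, by 0.83. Lpxn, the leukocyte relative of paxillin known as leupaxin, was at 0.16 (adjusted p = 0.518), and Ctnna1, the vinculin relative alpha-catenin, at -0.03 (adjusted p = 0.876), neither passing the test. Fermt1 had counts in the Nat10 cKO libraries alone and at most 0.209 CPM, too low to test. The call of Tln2 ended in DESeq2 (0.81) and without WT replicate 2 (0.39), and its value without WT replicate 1 was 1.34. The stromal markers were higher in the same libraries as Fermt2, Tgfb1i1 and Tln2, and of 6 smooth muscle and myofibroblast markers 5 were tested, 4 were higher and 0 lower (summed level 276 to 300 CPM in the Nat10 cKO libraries against 94.97 to 107 CPM in WT). Their part in these results was not tested.

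**Figure D3:**
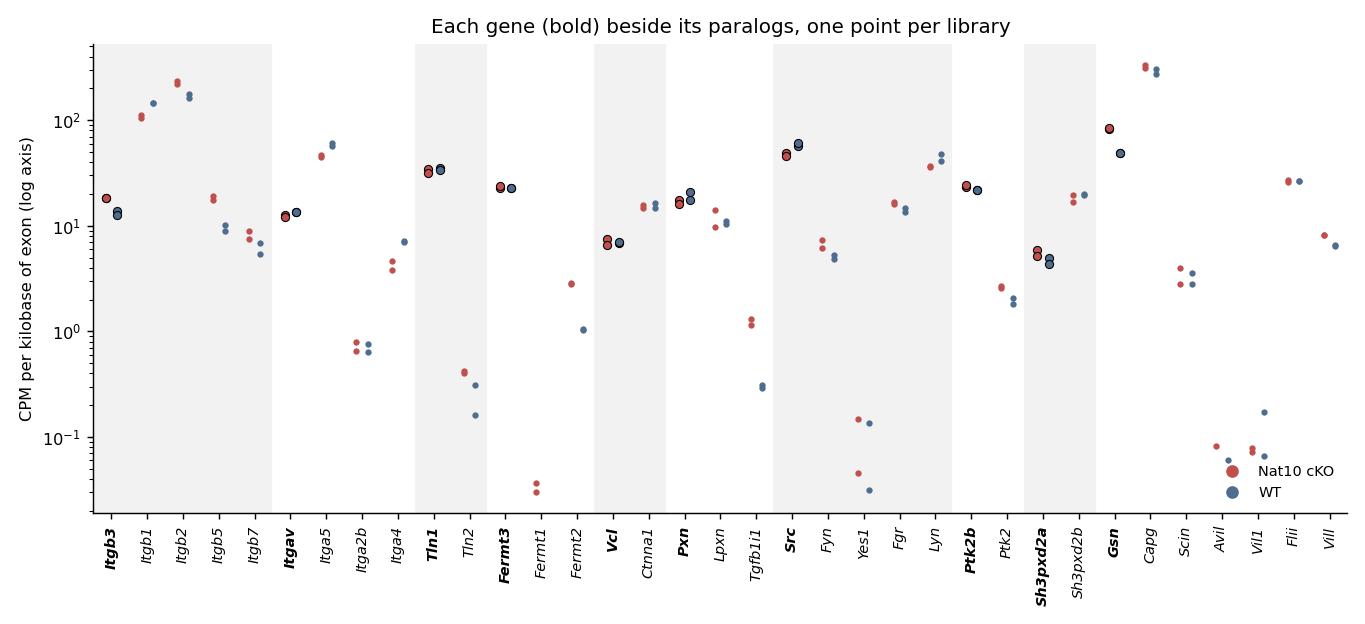
Level per kilobase of exon (vertical axis, log scale) of each of the 10 genes (bold, outlined points) beside the paralogs described here, with 1 point for each Nat10 cKO library (red, left) and WT library (blue, right). Libraries with no count are not drawn, and Tln1 and Fermt3 stand far above Tln2 and Fermt2 in every library.

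Of the 2 kinases, Src fell and Ptk2b did not pass the test. The difference between them was not tested. Src, the tyrosine kinase without which osteoclasts cannot form a working sealing zone, lies on chromosome 2 (ENSMUSG00000027646, 157260364 to 157313782, plus strand). It had 2455 and 2847 counts in the Nat10 cKO libraries and 2455 and 3401 counts in the WT libraries, or 212 and 198 CPM against 251 and 266 CPM. Both Nat10 cKO libraries lay below both WT libraries. The mean was 205 ± 9.46 CPM in the Nat10 cKO libraries and 259 ± 11.1 CPM in the WT libraries (SD, n = 2 each), and Src fell by 0.34 on the log2 scale (SE 0.0951, 95% interval -0.53 to -0.14, edgeR adjusted p = 0.0126), or by 20.7%. Upper-quartile factors (-0.24) ended the call, as did leaving out WT replicate 1 (-0.38) or 2 (-0.30), while the direction held in all 11 other settings, whose adjusted p ran from 0.000217 to 0.201. Per kilobase of exon Src was still among the most abundant of these transcripts, at 46.9 CPM per kb in the Nat10 cKO libraries and 59.1 CPM per kb in WT, above 92.0% of the 11435 tested genes with a known exon length.

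Ptk2b, which encodes Pyk2, the focal adhesion kinase relative that recruits Src in osteoclasts, lies on chromosome 14 (66390706 to 66518501, minus strand). Its level was 173 and 179 CPM in the Nat10 cKO libraries, against 161 and 163 CPM in the WT libraries. The Nat10 cKO libraries lay above the WT libraries without overlap, but the difference did not pass (log2 fold change 0.12, SE 0.0952, 95% interval -0.08 to 0.32, edgeR adjusted p = 0.383). The ratio of Src to Ptk2b per kilobase of exon was 2.07 and 1.88 in the Nat10 cKO libraries, against 2.63 and 2.76 in the WT libraries. Ptk2, the focal adhesion kinase itself, was lower than Ptk2b per kilobase in every library and rose by 0.45, a call that ended in DESeq2 (0.44) and without WT replicate 2 (0.35).

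Other kinases of the Src family, tested as paralogs, went both ways. Lyn, a kinase of this family in blood cells, fell by 0.30 (149 and 146 CPM in the Nat10 cKO libraries against 167 and 195 CPM in WT), whereas Fyn rose by 0.41 (31.8 and 27.1 CPM against 22.9 and 21.4 CPM in WT). Fgr was at 0.20 (adjusted p = 0.178), called only with upper-quartile factors (0.30), and Yes1, with 16 counts at most, was at 0.37 (adjusted p = 0.759). Lyn (-0.19) and Fyn (0.35) lost their calls with WT replicate 2 left out. The call of Lyn also ended without WT replicate 1 (-0.41), in DESeq2 (-0.30) and with library size only (-0.23) or upper-quartile factors (-0.20), and that of Fyn also without WT replicate 1 (0.45) or Nat10 cKO replicate 1 (0.28) and in DESeq2 (0.41).

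Sh3pxd2a encodes Tks5, the Src substrate and scaffold around which podosomes assemble, and lies on chromosome 19 (47248613 to 47452840, minus strand). Its level was 68.2 and 60.7 CPM in the Nat10 cKO libraries, against 57.8 and 50.7 CPM in the WT libraries. The groups did not overlap, and the log2 fold change was 0.25 (SE 0.113, 95% interval 0.01 to 0.49), which did not pass after adjustment over all genes (edgeR adjusted p = 0.107). Among the other scalings and the left-out libraries, it did pass with upper-quartile factors (0.35), with library size only (0.32) and without Nat10 cKO replicate 2 (0.33), and it was lowest, at 0.15, without WT replicate 2. Sh3pxd2b, which encodes the related scaffold Tks4, was at 191 and 162 CPM in the Nat10 cKO libraries and 192 CPM in both WT libraries (-0.12, adjusted p = 0.419), and was called lower only without Nat10 cKO replicate 1 (-0.25). It was the more abundant of the pair per kilobase of exon, with Sh3pxd2a at 0.298 and 0.313 of its level in the Nat10 cKO libraries and 0.252 and 0.221 in WT.

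Gsn, which encodes gelsolin, the calcium-dependent protein that severs and caps actin filaments, changed most among the 10 genes. It lies on chromosome 2 (ENSMUSG00000026879, 35146392 to 35197904, plus strand, GRCm39). Gsn had 3037 and 3838 counts in the Nat10 cKO libraries and 1511 and 1988 counts in the WT libraries, or 262 and 267 CPM against 154 and 156 CPM. The libraries of each group nearly coincided and the groups stood well apart. The mean was 265 ± 3.86 CPM in the Nat10 cKO libraries and 155 ± 0.997 CPM in the WT libraries (SD, n = 2 each), so that Gsn rose by 70.7%, or 0.77 on the log2 scale (95% interval 0.57 to 0.97, SE 0.0941, edgeR adjusted p = 6.06e-06). Gsn passed under all 11 other settings with values from 0.76 to 0.87, the one gene of the 10 whose call did so. Its fold change was above that of 90.3% of all tested genes. Gelsolin is also a protein of fibroblasts and is secreted into plasma, and the stromal markers, with 13 of 14 tested genes higher, were higher in the same libraries. Their part in the Gsn result was not tested.

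The gelsolin family binds, caps or severs actin, and 6 other members of it were listed as paralogs, not the whole family. Of the 4 that were tested, 1 rose and 0 fell, where 14.4% of all tested genes were higher and 14.4% lower. Capg, the macrophage capping protein, was at 787 and 836 CPM in the Nat10 cKO libraries and 690 and 776 CPM in the WT libraries (log2 fold change 0.15, adjusted p = 0.272). Flii was at 0.01 (adjusted p = 0.970) and Scin at 0.08 (adjusted p = 0.817), while Vill, with 36.1 and 36.2 CPM against 28.7 and 28.7 CPM in WT, rose by 0.33, a call that ended in 6 of the 11 other settings, among them each library left out (0.32 to 0.33). Avil and Vil1 had at most 6 counts in a library and were not tested. Per kilobase of exon Capg remained far above Gsn, with Gsn at 0.267 and 0.256 of its level in the Nat10 cKO libraries and 0.179 and 0.161 in WT.

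**Figure D4:**
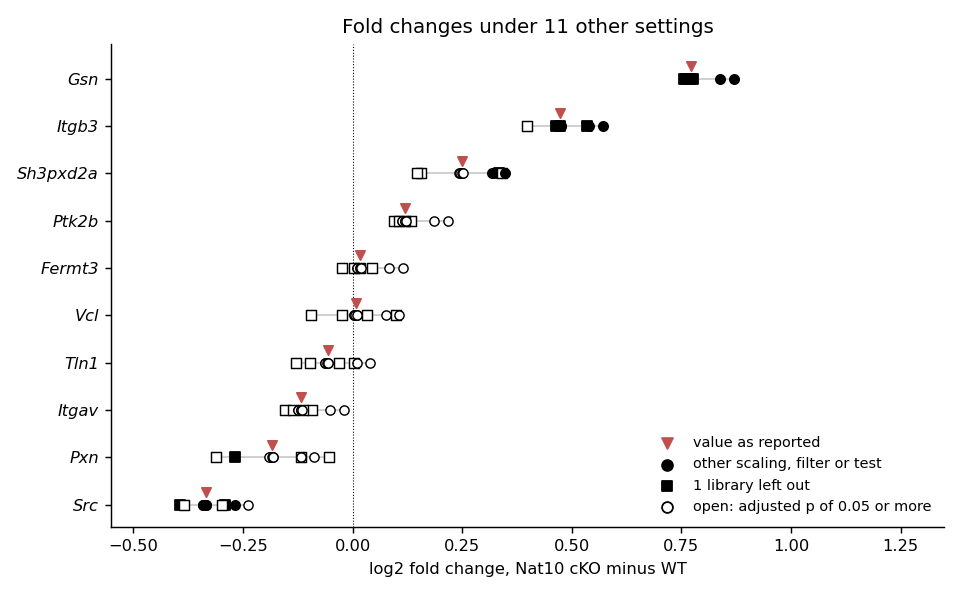
Fold change of each gene on the log2 scale (horizontal axis) as reported (red triangles) and under 11 other settings, with squares for 1 library left out and circles for another scaling, filter or test, filled where the adjusted p was under 0.05. Every mark of Gsn is filled, 1 mark of Itgb3 and 3 of Src are open, and the marks of Tln1, Fermt3 and Vcl lie on both sides of 0.

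Around these 10 genes, the wider machinery of podosomes and the actin ring moved in both directions. Of 132 other genes in 8 roles, 127 were tested, 29 rose and 22 fell in the Nat10 cKO libraries, that is 22.8% higher and 17.3% lower beside 14.4% each over all tested genes. Their median log2 fold change was 0.0069, and all tested genes had 0.0075. Of the 29 higher and 22 lower genes, 13 and 10 were called in the same direction under every other setting run. The higher genes numbered 16 without WT replicate 2 and 19 in DESeq2, and the lower genes 37 with Nat10 cKO replicate 1 left out, 14 with WT replicate 1 left out and 11 with WT replicate 2 left out.

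Among the adhesion receptors, 4 of 10 rose and 4 fell (40% each, beside 14.4% each over all tested genes). Itgb5 and Itgb2 rose as given above, and Ddr2, a collagen receptor of mesenchymal cells, rose by 1.07 (16.2 and 12.7 CPM in the Nat10 cKO libraries against 8.17 and 5.72 CPM in WT). Cd44, the hyaluronan receptor of the podosome core, fell by 0.65 (454 and 407 CPM against 723 and 633 CPM in WT), and Plaur, the urokinase receptor, fell by 0.67. Of the 4 ligands of integrin alpha v beta 3, Spp1, the bone matrix protein osteopontin, rose by 0.85 (725 and 827 CPM in the Nat10 cKO libraries against 419 and 440 CPM in WT) and Fn1, fibronectin, by 1.52 (165 and 174 CPM against 62.8 and 55.8 CPM in WT). The ligands Ibsp and Vtn had at most 6 counts in a library and were not tested. The calls of Itgb5, Ddr2, Cd44, Plaur, Spp1 and Fn1 held in all 11 other settings. The stromal markers were higher in the same libraries as Ddr2 and Fn1, with 13 of 14 tested genes higher, and their part in these results was not tested.

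Among the ring adaptors, 11 of 23 rose and 2 fell (47.8% and 8.70%, beside 14.4% each over all tested genes). Enah, the actin polymerase Mena, rose by 1.65 (44.8 and 46.0 CPM in the Nat10 cKO libraries against 15.3 and 13.7 CPM in WT), and the tensin Tns1 by 0.96. Vasp, the relative of Enah that is abundant in blood cells, fell by 0.27 (559 and 579 CPM against 660 and 709 CPM in WT) and Lims1, the adaptor PINCH1, fell by 0.40. Vasp lost its call with library size only (-0.20), with upper-quartile factors (-0.17) and with WT replicate 1 (-0.32) or 2 (-0.22) left out, and Lims1 with either of these libraries left out (-0.38 without replicate 1, -0.435 without replicate 2). As with the paralogs above, the stromal markers were higher in the libraries where Enah, Tns1 and Fermt2 were higher, and their part was not tested.

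Among kinases, phosphatases and signalling adaptors, 3 of 24 rose and 7 fell (12.5% and 29.2%, beside 14.4% each over all tested genes). The regulatory and catalytic subunits of phosphoinositide 3-kinase fell, Pik3r1 by 0.90 (75.1 and 75.6 CPM in the Nat10 cKO libraries against 139 and 143 CPM in WT) and Pik3ca fell by 0.64 (104 and 95.6 CPM against 155 and 156 CPM in WT). The tyrosine phosphatase Ptpre, which activates Src in osteoclasts, fell by 0.74 (275 and 222 CPM against 449 and 382 CPM in WT), while its relative Ptpra rose by 0.43, and its call was lost with either WT library left out (0.41 without replicate 1, 0.44 without replicate 2). The Rac activator Dock2 rose by 0.42 and the scaffold Git1 by 0.35, and Arhgap35 fell by 0.85. The call of Dock2 ended in DESeq2 (0.41) and without Nat10 cKO replicate 1 (0.27) or WT replicate 2 (0.28), and that of Git1 in DESeq2 (0.34) and with Nat10 cKO replicate 2 (0.26) or either WT library (0.28 and 0.41) left out.

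Among the genes of core actin nucleation and bundling, 2 of 29 rose and 5 fell (6.90% and 17.2%, beside 14.4% each over all tested genes). Lcp1, the leukocyte actin bundler L-plastin, fell by 0.53 (1947 and 1774 CPM in the Nat10 cKO libraries against 2686 and 2698 CPM in WT), and the cortactin relative Hcls1 fell by 0.41 and the adaptor Dbnl fell by 0.50. Cttn, which encodes cortactin itself, rose by 0.50 (26.6 and 22.7 CPM against 17.9 and 16.9 CPM in WT) and the formin Fmnl1 by 0.32. The call of Cttn ended in DESeq2 (0.50) and without Nat10 cKO replicate 1 (0.38) or WT replicate 2 (0.45), and those of Hcls1 (-0.39) and Dbnl (-0.43) without WT replicate 2. That of Fmnl1 ended with RLE factors (0.31), in DESeq2 (0.31) and with Nat10 cKO replicate 1 (0.23) or either WT library (0.32 and 0.30) left out. Among myosins, tropomyosins and trafficking genes, 4 of 17 tested rose and 3 fell (23.5% and 17.6%, beside 14.4% each over all tested genes). The metalloprotease Adam8 rose by 0.93, Adam19 by 0.62 and the myosin light chain Myl12a by 0.41. Mmp14, the membrane metalloproteinase that podosomes expose, fell by 0.81 (2135 and 1885 CPM against 3657 and 3380 CPM in WT), Myo10 fell by 0.48 and Tpm3 fell by 0.30. The calls of Adam19 (0.59, without WT replicate 2), Myl12a (0.32, without WT replicate 1), Myo10 (-0.40, without WT replicate 1) and Tpm3 (-0.31 without either WT replicate, -0.24 with library size only and -0.21 with upper-quartile factors) ended, and Myo10 was at -0.29 without Nat10 cKO replicate 2.

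**Figure D5:**
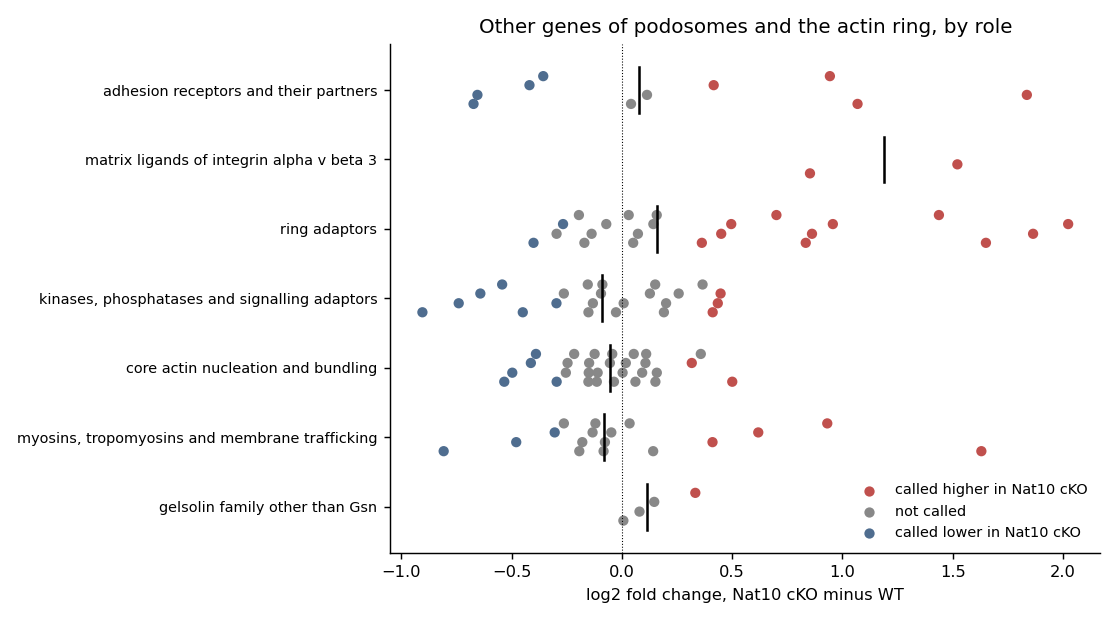
Fold change on the log2 scale (horizontal axis, Nat10 cKO minus WT) of tested genes of the wider list in 7 of its 8 roles, with 1 point per gene, coloured by the edgeR call, and a black line at the median of each role. Points called higher reach farthest among ring adaptors and adhesion receptors. Points called lower are more numerous than points called higher among kinases and among core actin genes. The share of core actin genes called lower (17.2%) was near that of all tested genes (14.4%).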

How the data were processed

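RNA of 2 Nat10 cKO and 2 WT libraries was sequenced. The authors deposited raw counts per protein-coding gene, whole numbers with no normalization, per the file headers. The submitters' processing notes name featureCounts 2.0, STAR 2.7.9a, fastp 0.20.0 and the build GRCm39. The sources used here give neither annotation release nor strand setting.

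Genes passing filterByExpr (11448 of 21834) entered the two-sided edgeR 4.0.16 quasi-likelihood test in R 4.3.3 with TMM factors, a single term for group, Benjamini-Hochberg adjustment over all tested genes and a threshold of 0.05. The SE is the absolute log2 fold change over the root of the F statistic. Levels are CPM, mean ± SD of 2 libraries, and CPM per kilobase used exon lengths of GENCODE M21 (GRCm38) matched by Ensembl ID (99.9% of tested genes). The fit was first run on counts simulated with the spread it had itself estimated and 200 changed genes. That run cannot show how well the calls are calibrated in the data. A chi-square of counts gave 11.2 (Nat10 cKO) and 6.16 (WT) per gene, so replicates differed by more than sampling noise. Total counts were 10037338 to 14097638. Precision rests on this depth and on the spread between 2 libraries per group, and no interval covers more than these libraries.

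Members, lists and named genes were chosen with earlier results of these data known. Results for some list genes and for 1 role are not reported here. Named are the 10 members, Nat10, fixed paralogs, and per reported role of a fixed list up to 3 higher and 3 lower called genes with the largest fold change and at least 10 CPM. Alternatives were RLE, upper-quartile and no scaling factors, 2 other filters, DESeq2 1.42.0, the replicate number as a block and each library left out.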

Additional observations from a re-analysis of the deposited data

How the results depend on the processing

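Of the called genes, Gsn held in all 11 settings, and the values below are log2 fold changes unless they count genes. With upper-quartile factors, the shift of the median gene being 0.098, Src was at -0.24 and not called, Sh3pxd2a at 0.35 and called, Tln1 at 0.040, and the median of the 10 genes 0.11, with 0 of them lower. With library size only, Sh3pxd2a was at 0.32 and called, Tln1 at 0.010 and that median 0.080. Calls over all genes split into 2247 higher and 1110 lower with upper-quartile factors and 2026 and 1252 with library size only, against 1652 and 1650 as reported. DESeq2 called 1065 genes higher over all genes and 19 of the wider list. With the replicate block, which moved the calls to 2126 higher and 2175 lower, Sh3pxd2a was called (0.25), and 31 genes of the wider list were higher and 33 lower. The labels do not state that equal replicate numbers mark a shared animal or day (correlation of replicate differences between groups 0.149), and no other call among the 10 genes changed. With each library left out, Itgb3 ranged from 0.40 to 0.53, Src from -0.39 to -0.29, Pxn from -0.31 to -0.054, Sh3pxd2a from 0.15 to 0.34, Fermt3 from -0.024 to 0.045, Tln1 from -0.13 to 0.0028 and Vcl from -0.095 to 0.098, and the median of the 10 from -0.025 to 0.049. Over the same settings 1 to 3 of the 10 were higher and 0 to 2 lower, 16 to 27 of the wider list were higher and 11 to 37 lower, and 864 to 1576 of all genes were higher and 973 to 1925 lower. Among other named genes, none of them called, the sign turned for Ctnna1 (0.039 with library size only, 0.069 with upper-quartile factors, -0.11 to 0.046 with a library left out) and, with a library left out, for Flii (-0.040 to 0.043), Itga2b (-0.12 to 0.18), Lpxn (-0.14 to 0.38), Scin (-0.21 to 0.29) and Yes1 (-0.76 to 1.64). With a library left out, 1 group has a single library, which is assumed to vary like the other group. The cause of these changes was not tested.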

Other observations

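The deposited annotation lists 5 of the 10 genes (Fermt3, Vcl, Src, Sh3pxd2a and Gsn) among 32 genes of the podosome, a set taken up after the data were seen. Of its 31 tested genes, 4 were higher and 6 lower in the Nat10 cKO libraries (median log2 fold change -0.10). These are 12.9% and 19.4%, where 14.4% of all tested genes were higher and 14.4% lower. Outside the lists above, Bin2, which bends membranes in podosomes of blood cells, rose by 0.48 (edgeR adjusted p = 0.0251), and Vcam1, an adhesion molecule, fell by 1.13 (adjusted p = 9.62e-05). Both were chosen after their values were seen, and no other setting was run for them. Of the 147 tested genes of the annotated focal adhesion pathway, which holds 6 of the 10 genes, 46 were higher (31.3%) and 21 lower (14.3%, median 0.11). This pathway also lists collagen and laminin genes. The stromal markers, with 13 of 14 tested genes higher, were higher in the same libraries, and their part in these counts was not tested. Of the 154 tested genes in regulation of the actin cytoskeleton, which also holds 6 of the 10, 34 were higher (22.1%) and 22 lower (14.3%, median 0.03). Of the 99 tested genes in osteoclast differentiation, which holds Itgb3 alone of the 10, 17 were higher (17.2%) and 27 lower (27.3%, median -0.06).

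Among markers of other cells a marrow culture could hold, 11 neutrophil and granulocyte genes included 6 tested, of which 4 were higher and 1 lower (summed level 807 to 908 CPM in the Nat10 cKO libraries against 485 to 499 CPM in WT), and Ly6g had no count. Of 7 endothelial markers, 3 were tested, 0 were higher and 2 lower (19.2 to 20.2 CPM in the Nat10 cKO libraries against 72.1 to 74.95 CPM in WT). Kdr (44.3 and 41.7 CPM) and Vwf (27.7 and 28.8 CPM), the lower genes, made up nearly all of the WT sum. Pecam1 was not called (log2 fold change 0.42), and Cdh5, Tek, Emcn and Tie1 were too low to test in either group. Of 10 B cell, T cell and erythroid markers, 3 were tested and 0 were called, with a summed level of 4.31 to 4.39 CPM in the Nat10 cKO libraries and 2.55 to 3.37 CPM in WT.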
